A study of Homo sapiens with 4 samples.

Results

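8 noncoding RNAs that build or mark RNA machines of the cell were followed through the count tables of NT2 cells. They were the rows whose symbol is RMRP, RPPH1, RN7SK, RN7SL1, RN7SL2, TERC, MALAT1 or NEAT1, 8 of 62696 rows, and each symbol named 1 row. They were selected on their counts and shares of these same 4 libraries, so their levels are a description and carry no test. NT2, also called NTERA-2, is a human embryonal carcinoma cell line. The series has 1 library of cells with an empty vector, whose genotype label is wild type, and 3 libraries labelled HYDIN2 knockdown, numbered 1 to 3; the growth protocol is the same for all. The labels do not say how the knockdown was made, whether the line is a clone, or whether the 3 replicates were separate cultures, so their spread may be technical. The count columns name a LacZ control and GKAP_KIF27 sets instead, and samples were taken from the record of the series.

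RMRP is the RNA of RNase MRP, an enzyme that cuts precursor ribosomal RNA, and RPPH1 is the catalytic RNA of RNase P, which trims the leader of precursor tRNAs with many of the same proteins. RN7SL1 and RN7SL2 encode the 7SL RNA of the signal recognition particle, which brings ribosomes making secreted proteins to the endoplasmic reticulum. RN7SK is the scaffold that holds the elongation factor P-TEFb inactive, and TERC is the template RNA of telomerase. TERC is made by RNA polymerase II and the other short ones by RNA polymerase III. MALAT1, found in nuclear speckles, and NEAT1, the scaffold of paraspeckles, are long nuclear transcripts of RNA polymerase II.

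The libraries held 25181737 counts for the empty vector and 62904698, 61627449 and 28552070 for labelled knockdown replicates 1, 2 and 3. Levels are CPM, counts brought to a common library size, with library totals scaled by the trimmed mean of M-values (TMM). HYDIN2 had 0.50 CPM with the empty vector and 2.41, 1.88 and 0.352 CPM in replicates 1, 2 and 3, so the targeted gene does not check the labels, and every direction here is that of libraries labelled knockdown. Replicate 3 stood apart from replicates 1 and 2. The 8 embryonal carcinoma markers looked up were all detected, with POU5F1 between 19.4 and 42.8 CPM and LIN28A between 1912 and 3620 CPM.

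Reads of the 7SL genes can be told apart only where their copies differ. What part this has in their counts was not tested. RN7SL1 (ENSG00000276168.1, chromosome 14, 49586580 to 49586878, plus strand) was aligned with RN7SL2 (ENSG00000274012.1, chromosome 14, 49862550 to 49862849, minus strand) and with RN7SL3 (ENSG00000278771.1), a further 7SL gene that is not one of the 8, using GENCODE 29 transcripts on GRCh38. RN7SL2 was identical to RN7SL1 in 295 of 300 aligned positions (98.3%) and RN7SL3 in 292 of 299 (97.7%). Of all stretches of 100 bases in RN7SL1, 25.5% occurred in no transcript of a gene elsewhere. The share was 17.9% for RN7SL2 and 88.0% for RN7SL3, and at 50 bases it was 15.6%, 13.5% and 64.8%.

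RMRP, the RNA with the most counts among the 8, is shown whole, as DNA from 5′ to 3′ from the same transcripts.
RMRP: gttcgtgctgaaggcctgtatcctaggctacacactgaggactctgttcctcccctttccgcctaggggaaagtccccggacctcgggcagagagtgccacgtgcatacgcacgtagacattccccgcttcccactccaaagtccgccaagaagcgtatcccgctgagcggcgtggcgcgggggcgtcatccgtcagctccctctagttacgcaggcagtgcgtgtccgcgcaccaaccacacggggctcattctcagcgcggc
Every stretch of 50 bases of RMRP, RPPH1 and TERC was absent from the transcripts of genes elsewhere, in GENCODE 29; genome sequence outside these transcripts was not searched. For RN7SK, 22.9% of the stretches of 50 bases and 48.0% of those of 100 bases occurred in no transcript of a gene elsewhere. Its first 100 bases are shown with each GATC in capitals. A search for G, A, T, C in this stretch found 3 matches, at bases 12 to 15, 41 to 44 and 63 to 66. The motif reads the same on both strands. GATC in the 5′ hairpin is known for binding HEXIM1, but which of the 3 matches lie in that hairpin was not tested. Of 203677 GENCODE 29 transcripts of at least 100 bases, 22.4% hold GATC in the first 100 and 0.286% hold it at least 3 times.
RN7SK: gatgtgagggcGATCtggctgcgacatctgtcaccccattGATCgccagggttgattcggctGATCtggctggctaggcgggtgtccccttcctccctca
TERC is shown from base 21 to base 81 of its annotated transcript, with the template that telomerase copies in capitals.
TERC: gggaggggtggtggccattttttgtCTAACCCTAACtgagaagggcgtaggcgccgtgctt

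The name "abundant" held for 2 of the 8 RNAs in these tables. RMRP and RN7SL1 were among the genes with the most counts, while RPPH1, RN7SK and RN7SL2 had 0 counts in all 4 libraries. TERC had 5 counts with the empty vector and 0, 0 and 1 in replicates 1, 2 and 3. MALAT1 and NEAT1 together took 0.00176% of counts with the empty vector and 0.00257%, 0.00308% and 0.00984% in the replicates. All 8 together took 1.92% with the empty vector and 1.12%, 1.56% and 0.794% in replicates 1, 2 and 3, nearly all of it RMRP and RN7SL1. With each count taken as its own fragment, a count of 0 allows up to 3 counts. That is 0.119 CPM before TMM scaling with the empty vector and 0.0477, 0.0487 and 0.105 in the replicates. If both mates of each pair were counted, a 0 allows up to 6 counts, and these floors are too low. Floors and intervals cover counting error only.

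RPPH1, RN7SK and TERC lie at places where the tables carry another row. RPPH1 (ENSG00000277209.1, chromosome 14, 20343075 to 20343407, minus strand) shares 100% of its exon bases with ENSG00000259001, which runs from 20343048 to 20343685 on the same strand and had 1 count in replicate 2 and 0 in the other libraries. RN7SK (ENSG00000283293.1, chromosome 6, 52995621 to 52995948, plus strand) shares 100% with a row named 7SK (ENSG00000202198, 52995620 to 52995950), also at 0 in all 4 libraries. TERC (ENSG00000270141.3, chromosome 3, 169764520 to 169765060, minus strand) shares 81.0% with a row named Telomerase-vert (ENSG00000277925, 169764610 to 169765047), also at 0. RMRP and RN7SL1 each have a further GENCODE 29 record at their place too, but those records have no row in the tables. The 3 RNAs that share their place with a row thus had from 0 to 6 counts over all libraries, and the 2 whose twin record has no row had from 35310 to 758060 counts in each library.

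RN7SL2 was the exception, at 0 without such a row. In GENCODE 29 it lies within the span of ENSG00000282885 but outside its exons. The tables carry a later version of that gene, whose exons are not given in the sources used here. That row had 18, 54, 60 and 27 counts in the empty vector library and replicates 1, 2 and 3.

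**Figure D1:**
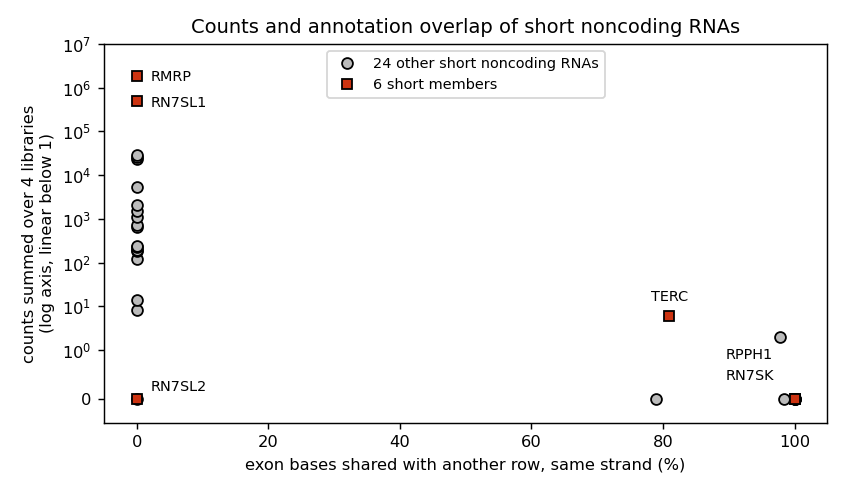
Counts summed over the 4 libraries (log axis, linear below 1) against the percent of exon bases that a short RNA shares on its strand with another row of the tables, for the 6 short RNAs (squares) and 24 other short noncoding RNAs (circles). RMRP and RN7SL1 sit at the top with nothing shared, and RPPH1, RN7SK and TERC sit at the right with 0 to 6 counts; RN7SL2 is at 0 with nothing shared and covers VTRNA1-2.

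The same held in other short noncoding RNAs. Of 24 listed ones in the tables (spliceosomal U RNAs, Y RNAs, vault RNAs and the like), 7 share at least 75% of their exon bases with another row on their strand, and 6 of these were at 0, with a highest sum of 2 counts. They include RNU12 and RNU11, U RNAs of the minor spliceosome, and SCARNA2. The other 17 had up to 29540 counts over the 4 libraries, and 1 of them, VTRNA1-2, was at 0. VTRNA1-1 and RNY4, which share no exon bases with another row, had only 8 and 14 counts. SNORD13, covered to 100% on the opposite strand, had 1485. Over all 761 short noncoding genes (longest transcript under 500 nt) covered to at least 90% on their strand, 98.6% were at 0 in every library and the highest sum was 7 counts. The share at 0 was 55.8% of 15597 such genes without overlap, and 95.8% of 530 covered only on the opposite strand. How the authors treated reads that fall on overlapping rows, and the strand setting, are not given in the sources used here, so the levels of RPPH1, RN7SK and TERC in the cells cannot be read from these tables. The part of overlap in the zeros was not tested beyond these counts.

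RMRP (ENSG00000277027.1, chromosome 9, 35657754 to 35658017, minus strand; 264 nt) had 401394 counts with the empty vector and 529690, 758060 and 188706 in labelled knockdown replicates 1, 2 and 3. It ranked 2, 2, 1 and 3 among all genes by counts. Its share of the library was 1.59% with the empty vector (95% Clopper-Pearson interval 1.59% to 1.60%, on counts divided by 2 since most nonzero counts were even, the pattern that counting each mate of a pair would leave). The shares were 0.842% (0.839% to 0.845%), 1.23% (1.23% to 1.23%) and 0.661% (0.657% to 0.665%) in replicates 1, 2 and 3. The empty vector library was thus the highest and replicate 3 the lowest, and the 3 knockdown values did not reach the empty vector value. In bulk RNA, fewer cells with an RNA and less of it per cell cannot be told apart.

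In CPM, RMRP was at 16722 with the empty vector and at 8508, 12700 and 6039 in the replicates, a mean of 9082 ± 3367 (SD, n = 3). The log2 differences from the empty vector were -0.97, -0.40 and -1.47, with a mean of -0.95 ± 0.54 (SD, n = 3). The mean lay past its spread, but the comparison has 1 control library and no replicate check on that side. Of 15880 genes with a mean of at least 1 CPM, 1237 (7.79%) had a lower mean difference than RMRP. RMRP was 0.58 higher in replicate 2 than in replicate 1 on the log2 scale. Between these libraries, 411 of the 15880 genes were at least as far apart. RMRP was chosen with its differences between libraries known, so its places among all genes are a description and no evidence that it stands out.

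RN7SL1 (299 nt) had 81297 counts with the empty vector and 171654, 202990 and 35310 in replicates 1, 2 and 3, which made it number 10, 10, 9 and 41 by counts. Its share was 0.323% with the empty vector (0.320% to 0.326%) and 0.273% (0.271% to 0.275%), 0.329% (0.327% to 0.331%) and 0.124% (0.122% to 0.126%) in the replicates. Replicate 3 was low and the other 3 libraries lay close together, with the empty vector between replicates 1 and 2. In CPM, RN7SL1 was at 3387 with the empty vector and at 2757, 3401 and 1130 in the replicates. The mean log2 difference was -0.62 ± 0.84 (SD, n = 3), smaller than its spread, and -0.15 without replicate 3.

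RN7SL3, the other 7SL gene with counts, moved like RN7SL1 from library to library. It had 14357 counts with the empty vector and 26390, 31158 and 4328 in the replicates, or 598, 424, 522 and 139 CPM. Its ratio to RN7SL1 was 0.177 with the empty vector (0.172 to 0.181), then 0.154 (0.151 to 0.157), 0.153 (0.151 to 0.156) and 0.123 (0.117 to 0.128) across the labelled knockdown replicates, so it was lowest in replicate 3. Since the genes share most of their sequence, reads of one can be assigned to another. The 677 rows named as RN7SL pseudogene copies added 0.00249% of counts with the empty vector and 0.00208%, 0.00162% and 0.00418% in the replicates. RN7SL4P (chromosome 3, 15738515 to 15738809, plus strand), the copy with the most counts, had 6.62 CPM with the empty vector and 5.40, 2.40 and 1.95 CPM in the 3 replicates. Unlike RN7SL1, it was lower in replicate 2 than in replicate 1.

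The ratio of RMRP to RN7SL1 was 4.94 with the empty vector (4.89 to 4.99), and 3.09 (3.06 to 3.11), 3.73 (3.71 to 3.76) and 5.34 (5.26 to 5.43) in the labelled knockdown replicates. The empty vector value lay between those of the knockdown replicates, so this ratio did not part the groups.

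**Figure D2:**
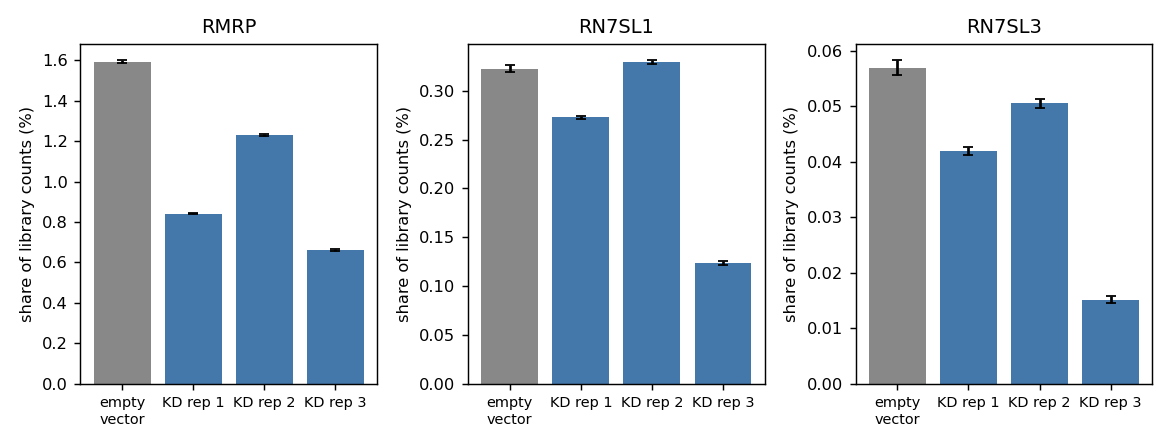
Share of library counts (percent, axes from 0) of RMRP, RN7SL1 and RN7SL3 in the empty vector library (grey) and the 3 labelled knockdown libraries (blue), with 95% Clopper-Pearson intervals on counts divided by 2. RMRP is highest with the empty vector at 1.59%, and all 3 RNAs are lowest in replicate 3.

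RN7SK had no count in its own row, but its pseudogene copies did. The 293 rows whose symbol begins with RN7SKP had 1446 counts with the empty vector and 3659, 4267 and 1090 in replicates 1, 2 and 3. That is 0.00574%, 0.00582%, 0.00692% and 0.00382% of the libraries. RN7SKP80 (ENSG00000202058.1, chromosome 22, 42565048 to 42565330, minus strand) had the most, at 23.3 CPM with the empty vector and 23.3, 28.8 and 8.51 CPM in the replicates. RN7SKP203 followed at 11.6, 9.32, 14.4 and 4.03 CPM, and RN7SKP255 had from 2.98 CPM in replicate 3 to 11.3 CPM in replicate 2. In these 3 copies replicate 3 was the lowest library, as for RMRP and RN7SL1. Whether these counts are reads of 7SK RNA or of the copies was not tested.

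MALAT1 (ENSG00000251562.10; 65497688 to 65506516 on chromosome 11, plus strand, in GENCODE 29) had 108 counts with the empty vector and 404, 344 and 427 in replicates 1, 2 and 3. Those are 4.50, 6.49, 5.76 and 13.7 CPM, with a mean of 8.64 ± 4.37 (SD, n = 3) in the knockdown libraries. The empty vector library was the lowest, replicates 1 and 2 were up to 1.44 times as high, and replicate 3 was 3.04 times as high. The mean log2 difference was 0.82 ± 0.67 (SD, n = 3) and 0.44 without replicate 3. By RefSeq on GRCh38.p14, the antisense gene TALAM1 (65499312 to 65507432) covers 82.1% of MALAT1 on the opposite strand. TALAM1 has a row of its own in the tables, with 34 counts with the empty vector and 42, 50 and 91 in the replicates, or 1.42, 0.675, 0.838 and 2.91 CPM. Reads of MALAT1 and TALAM1 cannot be told apart unless strand was used in counting, which is not given in the sources used here. How reads on the shared part were treated is not given either, so the level of MALAT1 in the cells cannot be read from these tables.

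NEAT1 (ENSG00000245532.11; 65422774 to 65445540 on chromosome 11, plus strand, in GENCODE 29) had 336 counts with the empty vector and 1214, 1553 and 2382 in replicates 1, 2 and 3. Those are 14.0, 19.5, 26.0 and 76.2 CPM, with a mean of 40.6 ± 31.0 (SD, n = 3) in the knockdown libraries. Again the empty vector was the lowest library and replicate 3 the highest, at 5.45 times the empty vector level. The log2 differences were 0.48, 0.89 and 2.44, with a mean of 1.27 ± 1.04 (SD, n = 3) and 0.68 without replicate 3. In replicate 3, 126 of 15880 genes had a higher difference from the empty vector than NEAT1. This place is a description, since NEAT1 was chosen with its values known.

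Between them, NEAT1 had 3.11 counts per count of MALAT1 with the empty vector (2.28 to 4.31), and 3.00 (2.56 to 3.54), 4.51 (3.82 to 5.35) and 5.58 (4.83 to 6.50) in the labelled knockdown replicates. Per kilobase of the longest transcript, NEAT1 was at 0.615 CPM and MALAT1 at 0.517 CPM with the empty vector, and at 3.35 and 1.57 CPM in replicate 3. On the same scale RMRP was at 63341 CPM and RN7SL1 at 11327 CPM with the empty vector. The order from RMRP through RN7SL1 and NEAT1 to MALAT1 was the same in all 4 libraries. For MALAT1 this is its place by counts only, since TALAM1 covers 82.1% of it on the opposite strand. How reads there were counted is not given in the sources used here, and the ratios of NEAT1 to MALAT1 have the same limit. NEAT1 per kilobase was 1.19 times MALAT1 with the empty vector (0.872 to 1.65) and 1.15 times in replicate 1 (0.980 to 1.36), so these neighbours in the order did not differ beyond counting error there; the ratio was 1.73 (1.46 to 2.05) and 2.14 (1.85 to 2.49) in replicates 2 and 3.

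**Figure D3:**
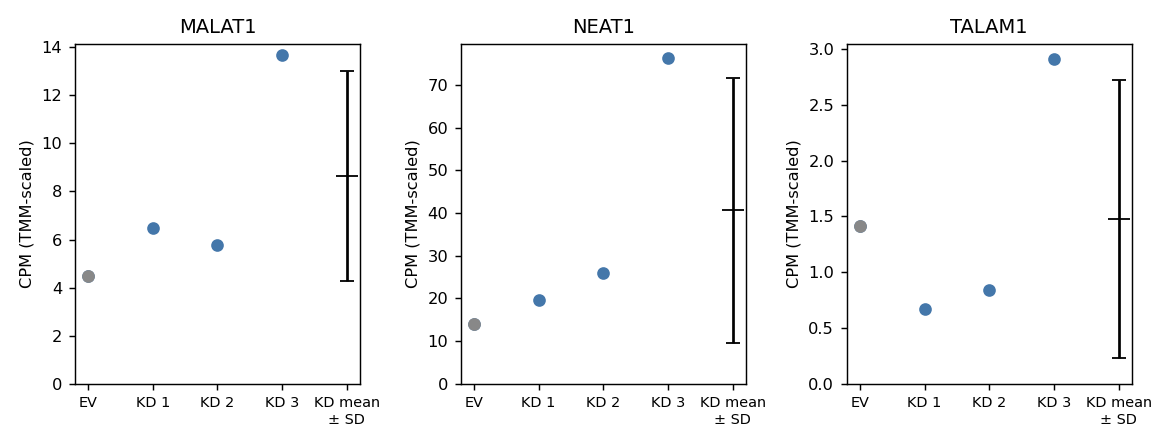
TMM-scaled CPM (axes from 0) of MALAT1, NEAT1 and the antisense gene TALAM1 in the empty vector library (EV, grey) and labelled knockdown replicates 1 to 3 (KD, blue), with the mean and SD of the 3 (black). Replicate 3 is the highest library in each panel, at 13.7, 76.2 and 2.91 CPM.

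A rule of size asked that log2 CPM be 1 or more (2-fold) above the empty vector in every labelled knockdown library, or 1 or more below it in every one. RMRP, RN7SL1, MALAT1 and NEAT1 reached the minimum of 1 CPM, and 0 of these 4 passed. Over all 15880 genes, 581 were higher (3.66%) and 432 lower (2.72%), together 6.38%. With total-count scaling, 734 were higher and 312 lower, so the share of higher ones moved from 57.4% to 70.2%. Without replicate 3, 1543 were higher and 845 lower, and 0 of the 4 RNAs passed; that is 15.1% of 15797 genes, the background for every list without replicate 3. All 3 knockdown libraries lay below the empty vector in 34.2% of genes, as for RMRP, and above it in 30.1%, as for MALAT1 and NEAT1. The rule that chose the RNAs used these counts, so nothing is read from that.

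RMRP lay below the empty vector in all 3 libraries and MALAT1 and NEAT1 above it, while RN7SL1 was below it in replicates 1 and 3 and level with it in replicate 2. Short and long genes in general had medians on opposite sides of it. Across 15485 genes with a known length, Spearman's rho between longest transcript and log2 difference was 0.347, 0.298 and 0.460 in replicates 1, 2 and 3; genes are not independent replicates, and all 3 values share the empty vector library. The 275 tested genes under 500 nt had a median log2 difference of -0.43, -0.24 and -1.10 in the 3 replicates. The 4407 genes of 5000 nt or longer had medians of 0.38, 0.34 and 0.38. With smooth trends on length and GC content taken out, RMRP was at -0.44, 0.02 and -0.62, RN7SL1 at 0.20, 0.39 and -0.78, MALAT1 at -0.04, -0.16 and 0.86, and NEAT1 at -0.37, 0.09 and 0.98. After that step none of the 4 lay on 1 side of the empty vector in all 3 libraries. Only replicate 3 still differed from the empty vector by more than 0.5 in each of them.

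**Figure D4:**
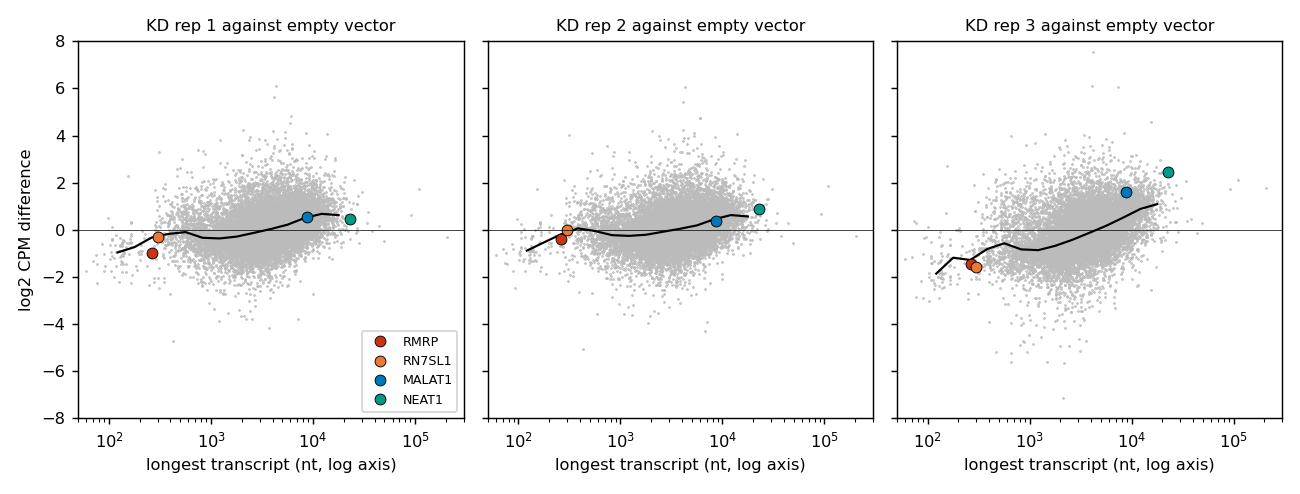
Log2 CPM difference from the empty vector library against the longest annotated transcript (nt, log axis) of each gene, for labelled knockdown (KD) replicates 1 to 3. Grey points are the 15485 tested genes with a length, the black line joins medians of length bins with at least 20 genes, and coloured points are RMRP, RN7SL1, MALAT1 and NEAT1; the line climbs with length, and the coloured points lie at both its ends.

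Other RNAs of the same kinds were looked up for comparison. Over all 15880 tested genes, 8136 had a mean log2 difference below 0 and 7744 above it. That is the background for the counts of genes below 0 in this list and in those that follow. All 13 tested short noncoding RNAs of the list had a mean log2 difference below 0, with a median of -1.32 beside -0.02 over all genes, and medians of -0.93, -0.91 and -2.07 in replicates 1, 2 and 3. By the 2-fold rule 3 of the 13 were lower and 0 higher. A closer background is the 240 tested genes under 500 nt that are not protein-coding, without the RNAs followed here. Their median was -0.63, and 26 (10.8%) were lower and 4 (1.67%) higher by the rule, beside 2.72% lower over all genes. Of these 240, 182 had a mean log2 difference below 0. The 240 still hold the listed short noncoding RNAs under 500 nt, so they are not a separate set. Short noncoding genes in general thus lay below the empty vector too. Whether the list differs from them was not tested. In the list, RNU5A-1, a U5 RNA of the spliceosome, had the lowest mean. It was at 10.6 CPM with the empty vector and 3.58, 3.15 and 1.79 CPM in the replicates. RNY1, a Y RNA that is made by RNA polymerase III like RMRP, was at 286 CPM and 125, 122 and 64.7 CPM. RNU6ATAC, the U6 of the minor spliceosome, was at 3.25 CPM and 0.659, 1.31 and 0.768 CPM, and RNU5F-1 had the highest mean difference at -0.96 ± 1.22 (SD, n = 3), which was -0.25 without replicate 3. After removal of the length and GC trends the list's median was -0.69 and the value of RNU5F-1 was -0.26.

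Of 8 tested long noncoding RNAs, 7 had a mean difference above 0, with a median of 0.37. MIAT, also a nuclear RNA, passed the 2-fold rule, at 1.71 CPM with the empty vector and 6.67, 6.99 and 15.3 CPM in the replicates. NORAD, a cytoplasmic RNA that binds Pumilio proteins, was at 176 CPM and 313, 289 and 288 CPM. TALAM1 was the lowest of the list, with a mean difference of -0.24 ± 1.10 (SD, n = 3). No direction is given for it, since single libraries decide the value: it was 0.14 without replicate 1, -0.0026 without replicate 2 and -0.87 without replicate 3. Taking out the trends turned the list's median to -0.30, while the mean difference of MIAT went from 2.36 to 1.71.

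The protein partners were tested across all genes; their lists were drawn up with earlier results of these data known, so their counts are no independent evidence. At an adjusted p of 0.05 (Benjamini-Hochberg), the quasi-likelihood test of edgeR called 0 of 26029 genes (0%), 3023 had an unadjusted p under 0.05, and the smallest adjusted p was 0.358. The test takes its spread from the 3 labelled knockdown libraries and assumes that the empty vector library varies like them. The number of calls rested on single libraries, with 17, 39 and 11177 calls without replicate 1, 2 and 3. DESeq2's Wald test called 388 of 15431 genes (2.51%). In every list below, edgeR called 0 genes, and the text gives its number at an unadjusted p under 0.05. The background for those numbers is 3023 of 26029 genes.

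RNase P and RNase MRP share most of their proteins. Of 10 tested genes of this list, 9 had a mean log2 difference below 0, with a median of -0.74 and medians of -0.74, -0.80 and -0.82 in replicates 1, 2 and 3. RPP25 and POP5 were lower by the 2-fold rule and 0 genes were higher; edgeR had 5 at an unadjusted p under 0.05, and DESeq2 called 1, RPP25. RPP25, a protein that binds RNA in both enzymes, was at 55.3 CPM with the empty vector and at 19.2, 19.7 and 23.6 CPM in the replicates, a mean log2 difference of -1.41 ± 0.16 (SD, n = 3; edgeR's adjusted p = 0.358). POP5, a core subunit, was at 34.4 CPM and 13.0, 14.2 and 16.5 CPM (edgeR's adjusted p = 0.358). Both had 3 knockdown libraries below the empty vector by more than their own range. RPP14 was the highest, at 0.31 ± 0.17 (SD, n = 3), and turned to -0.25 with the length and GC trends taken out. Without replicate 3 POP7 passed the rule as well.

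Of 8 signal recognition particle and receptor genes, 7 had a mean difference below 0, with a median of -0.25, and 0 passed the 2-fold rule. SRP68, which binds 7SL RNA with SRP72, had the lowest, at 126 CPM with the empty vector and 67.8, 67.7 and 64.9 CPM in the replicates, or -0.91 ± 0.04 on the log2 scale (SD, n = 3; edgeR's adjusted p = 0.358). SRPRB, a receptor subunit, had the highest at 0.10 ± 0.45 (SD, n = 3), between -0.05 and 0.36 when 1 replicate was left out. In edgeR, 2 genes had an unadjusted p under 0.05.

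The 7SK particle and P-TEFb list lay on both sides of the empty vector, 3 genes above and 3 below and 0 of 6 passed the rule. Their median was 0.00 and changed sign over the alternatives, from -0.16 to 0.12. The kinase CDK9 was at 130.5 CPM with the empty vector and at 59.4, 56.6 and 81.9 CPM in the replicates, with log2 differences of -1.13, -1.20 and -0.67 (edgeR's adjusted p = 0.371). It passed the 2-fold rule without replicate 3. MEPCE, which caps 7SK RNA, was the highest, at 0.81 ± 0.42 (SD, n = 3) from 20 counts with the empty vector. CDK9 was the only gene of the list at an unadjusted p under 0.05 in edgeR.

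Telomerase proteins had a median of -0.65 over 8 genes, 7 of them below 0, and 0 passed the 2-fold rule. With the length and GC trends taken out the median was -0.37. TERT, the reverse transcriptase, had the lowest mean difference, at 7.96 CPM with the empty vector and 2.94, 3.35 and 4.26 CPM in the replicates, or -1.19 ± 0.27 (SD, n = 3; edgeR's adjusted p = 0.396). TERT passed the rule without replicate 3. PARN, a nuclease that trims TERC, had the highest at 0.22 ± 0.48 (SD, n = 3) and ranged from 0.07 to 0.50 when 1 replicate was left out, and 3 genes had an unadjusted p under 0.05 in edgeR.

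All 10 paraspeckle proteins had a mean difference below 0, with a median of -0.39, while NEAT1 was above the empty vector; 0 passed the 2-fold rule and 2 had an unadjusted p under 0.05 in edgeR. CPSF6 was the lowest at -0.82 ± 0.43 (SD, n = 3), was at -1.31 with the trends taken out, and passed the rule without replicate 3. SFPQ, which binds NEAT1, was the highest at -0.23 ± 0.28 (SD, n = 3), from -0.39 without replicate 3 to -0.14 without replicate 1. Of 9 nuclear speckle and MALAT1-binding proteins, 6 were below 0, with a median of -0.35, and 0 passed the rule. The median was -0.16 without replicate 1 and -0.19 without replicate 2, and in replicate 3 alone it was 0.25. The splicing factor SRSF2 was at 339 CPM with the empty vector and 64.8, 69.3 and 208 CPM in the replicates, a mean difference of -1.80 ± 0.94 (SD, n = 3). The speckle scaffold SON was the highest at 0.41 ± 0.60 (SD, n = 3), but at 0.07 without replicate 3 and at -0.20 with the length and GC trends taken out. Without replicate 3, SRSF2, SRSF3 and SRSF7 passed the rule, and edgeR had 2 genes of this list at an unadjusted p under 0.05.

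RNA polymerase III and its factors numbered 31 tested genes, 22 of them below 0, with a median of -0.37. BDP1, a part of the initiation factor TFIIIB, passed the 2-fold rule as higher, at 20.5 CPM with the empty vector and 48.4, 42.3 and 45.4 CPM in the replicates (edgeR's adjusted p = 0.358). Its longest transcript has 11073 nt, and its mean log2 difference of 1.14 became 0.42 with the length and GC trends taken out. GTF3C6, a subunit of TFIIIC, had the lowest mean difference at -1.32 ± 0.32 (SD, n = 3; edgeR's adjusted p = 0.358). In edgeR, 9 of the 31 had an unadjusted p under 0.05. Without replicate 3, BDP1 and POLR3C were higher and GTF3C2 and GTF3C6 lower by the rule, 4 of 31 and a share below the 15.1% over all genes.

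**Figure D5:**
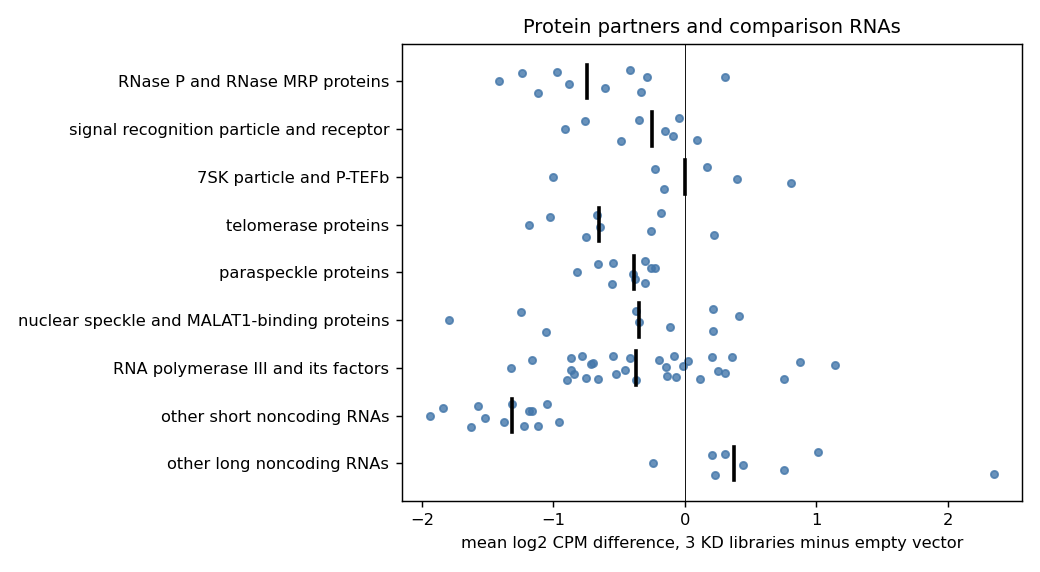
Mean log2 CPM difference of the 3 labelled knockdown (KD) libraries from the empty vector for each tested gene (points) of the partner and comparison lists, with each list's median (black bar); vertical shifts within a row only separate points. The short noncoding RNAs lie lowest, with a median of -1.32, and the long noncoding RNAs highest, with a median of 0.37.

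The nearest protein-coding genes are given beside the RNAs they flank. CCDC107, which starts 273 bp from RMRP, had 0.50 CPM with the empty vector and 0.562, 0.235 and 0.416 CPM in the replicates, and SIT1 had at most 0.25 CPM. RPS29, a ribosomal protein gene whose span holds RN7SL1 on the other strand, was at 178 CPM and 101, 112 and 76.1 CPM (edgeR's adjusted p = 0.386). FRMD8, before NEAT1, was at 15.9 CPM and 9.99, 8.95 and 19.3 CPM. Its mean difference was below 0, unlike those of NEAT1 and MALAT1. PARP2, 175 bp from RPPH1, was at 35.3 CPM and 31.7, 32.4 and 29.2 CPM. GSTA4, 243 bp from RN7SK, was at 64.6 CPM and 36.4, 44.2 and 31.4 CPM, and ACTRT3, 1861 bp from TERC, at 2.42 CPM and 1.64, 1.93 and 1.73 CPM.

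The genes whose 3 log2 differences lay nearest to those of RMRP, by Euclidean distance among 9937 genes with a mean of at least 10 CPM, were MARCHF2 (distance 0.182), SFT2D1 (0.219), FKBP3 (0.231), H2BC5 (0.235) and MACC1-AS1 (0.246). Nearest to MALAT1 among 9938 genes were, in order, MGAT3 (0.0731), CELSR2, SLC1A3, EMILIN2 (0.104) and AMOT (0.118). These distances rest on 4 libraries that share the empty vector.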

How the data were processed

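Total RNA of 4 NT2 libraries was depleted of ribosomal RNA and made strand-specific, per the labels' protocols. The authors deposited raw counts per gene, in 62696 rows named by versioned Ensembl identifier. STAR 2.7.11b, featureCounts 2.0.6, DESeq2 and GRCh38 are named in the submitters' processing notes, without settings; the annotation release is not given in the sources used here. Depth ranged from 25181737 to 62904698 counts and sets the CPM floor for a 0, which is 3 counts, or 6 if both mates of a pair were counted. Between 65.2% and 68.0% of nonzero counts in a library were even. Coordinates, lengths and exon overlap came from GENCODE 29 (58269 rows matched), and those of TALAM1 from RefSeq.

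CPM used TMM factors of edgeR 4.0.16 in R 4.3.3 (0.953 for the empty vector; 0.990, 0.969 and 1.09 for replicates 1 to 3) from genes kept by filterByExpr, and log2 CPM a prior count of 2. Tests were edgeR's quasi-likelihood and, as an alternative, DESeq2 1.42.0, at an adjusted p of 0.05; both rule and test were tested on simulated data. Trends were lowess fits with a span of 0.3. Genes named are the 8 RNAs, HYDIN2, every list gene past the 2-fold rule and the highest and lowest of each list. Neighbours and the 5 nearest patterns are named too. Copies, RN7SL3 and markers were named after their values were seen. So were NORAD, RNU12, RNU11, SCARNA2, VTRNA1-2, VTRNA1-1, RNY4 and SNORD13. Members and lists were chosen with earlier results of these data known. The embryonal carcinoma list had a median log2 difference of -0.24 over 8 genes (-0.38, -0.42 and -0.05 without replicate 1, 2 and 3), with DNMT3B lower by the 2-fold rule. Alternatives were scaling (RLE, total counts, upper quartile, protein-coding genes), prior counts of 0.5 and 5, mean CPM of 0.1 and 5, leaving out each knockdown replicate, and trend removal. Some items are not reported here.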

Additional observations from a re-analysis of the deposited data

How the results depend on the processing

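No paired analysis was possible because only the knockdown libraries carry replicate numbers; the empty vector has 1 unnumbered library. RMRP, RN7SL1, MALAT1 and NEAT1 kept the direction of their mean log2 difference under all 10 alternatives run for each. The ranges were -1.22 to -0.35 for RMRP, -0.94 to -0.06 for RN7SL1, 0.22 to 1.06 for MALAT1 and 0.23 to 1.67 for NEAT1. Removing length and GC trends moved 2 of them past 1 SD, RMRP to -0.35 and NEAT1 to 0.23; the values by library are in the report, and the cause was not tested.

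The number of genes past the 2-fold rule, 581 higher and 432 lower, was 1606 and 1035 at a mean CPM of 0.1, where more genes are tested, 377 and 254 at a mean CPM of 5, where fewer are, and 378 and 282 with trends removed, an alternative added after the data were seen. Leaving out 1 knockdown replicate gave 616 to 1543 higher and 485 to 845 lower genes. edgeR's 0 calls became 17 to 11177 when 1 replicate was left out, and DESeq2 called 388; RLE scaling and no filter on low counts kept 0.

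Relative to the counts of all other genes, the share of RMRP was 1.63% with the empty vector and 0.852%, 1.25% and 0.666% in replicates 1 to 3. RN7SL1 was on the same base at 0.329% with the empty vector and 0.276%, 0.335% and 0.125% in replicates 1 to 3. At 0 to 5 counts, depth limits any statement on TERC.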
